A study of Homo sapiens with 4 samples.

Results

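DNA break repair and checkpoint genes were followed in control RPE1 SunTag cells and in those with TOP2B knocked down. They are 51 listed genes of homologous recombination, the Fanconi anemia pathway, end joining and the ATM and ATR checkpoint, listed by name with no threshold on their change. All 51 had 1 row each among the 60725 genes of the count table. A gene was tested when it had at least 10 counts in at least 2 libraries, which 49 of the 51 genes passed, along with 15356 genes in all. RPE1 is a line of human retinal pigment epithelium that telomerase (hTERT) keeps dividing, and the cells of both groups also express the SunTag system. The control group (scramble, 2 replicates) received the Silencer Select Negative Control No. 2 siRNA. The TOP2B knockdown group (TOP2BKD, 2 replicates) received the Dharmacon pool of siRNAs against TOP2B, a topoisomerase that cuts and rejoins both strands of DNA. Either siRNA was given at 10 nM, again after 48 h, and RNA was taken 72 h after the second transfection, on day 5. The groups differ in the siRNA reagent as well as in TOP2B, and these cannot be told apart in this design. The knockdown was transient, and all 4 libraries come from 1 line.

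A double-strand break can be repaired by homologous recombination, which trims the broken ends and copies the missing sequence from the sister chromatid, or by end joining, which ligates the ends directly. Recombination works in S and G2 phase, when a sister is present, while classical end joining works throughout the cell cycle. The Fanconi anemia pathway unhooks crosslinks between the strands of DNA and hands the resulting break to recombination. ATM responds to broken ends and ATR to exposed single strands, and their kinase cascades hold the cell cycle while repair proceeds. Topoisomerase II enzymes form a transient break in each reaction cycle, which is why these pathways are of interest beside the depletion of TOP2B.

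The 4 libraries held between 20310259 and 23887013 counts, so that a value of 1 CPM (counts scaled to library size by TMM) stood for 20.3 to 23.9 reads. The 10 genes with the most reads held 5.76% to 6.72% of a library, and mitochondrial genes held 5.67% and 5.66% in control against 4.57% and 4.50% in TOP2B knockdown cells. TOP2B itself had 3709 and 3272 counts in the control libraries and 324 and 268 in the TOP2B knockdown libraries, for which the fit gave a log2(fold change) of -3.38, a standard error (SE) of 0.14 and an adjusted p (p adj) of 5.1e-06. Of the markers of retinal pigment epithelium, MITF (38.1 to 44.8 CPM) and OTX2 (11.2 to 13.4 CPM) were expressed and RLBP1 had at most 1 count. RPE65 and TYR had 0 counts in all 4 libraries, which at a limit of 3 counts allows up to 0.148 CPM in the library with the fewest reads. BEST1, PMEL and SERPINF1 were low, at up to 2.22 CPM. All 5 tested markers of this list (with MITF and OTX2) lay higher in both knockdown than in both control libraries, as did 27.7% of all genes. None of the 5 was called, and 1 had an unadjusted p below 0.05. The list summed to 53.3 and 51.2 CPM in control against 60.4 and 61.1 CPM in TOP2B knockdown cells. The keratin KRT8 had 1100.9 and 1345.9 CPM against 852.5 and 1072.3 CPM, and KRT18 354.5 and 424.0 CPM against 266.0 and 328.9 CPM. Each was lower in both knockdown libraries, as were 26.6% of all genes, and neither passed the test. Among 11 markers of blood, endothelium, neurons, other epithelia and muscle, 9 had fewer than 10 counts in each library, and the summed level of all 11, mostly PECAM1 and SYP, was 2.00 and 2.10 CPM in control against 1.32 and 1.04 CPM in TOP2B knockdown cells. The part of these shares and markers in the values of the repair genes was not tested. In bulk RNA, a change in the share of cells that express a gene and a change in the RNA per cell cannot be told apart.

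Among the 51 listed genes, all those called higher in TOP2B knockdown cells belonged to homologous recombination or the Fanconi anemia pathway. Of the 49 tested genes, 17 were higher (34.7%) at an adjusted p below 0.05, against 6.66% of all 15356 genes, and 1 was lower, LIG4, against 4.18% of all genes. These calls came from edgeR's quasi-likelihood test with Benjamini-Hochberg adjustment over all tested genes. The other 31 genes did not pass, which does not show that they were unchanged. The median log2(fold change) of the 49 genes was 0.36, beside -0.0029 for all tested genes, and 38 values were positive and 11 negative. Both knockdown libraries lay above both control libraries for 29 genes, where 27.7% of all genes did so, and below them for 4 genes (RAD51C, FANCF, LIG4 and TP53BP1), where 26.6% of all genes did so. The changes were small, and 2 genes passed 2-fold, FANCG and FANCE. By role, 11 of 22 recombination genes and 6 of 12 Fanconi genes were called higher, each group with a median of 0.51, while 0 of 7 end joining genes and 0 of 8 signalling genes were, with medians of -0.05 and 0.05. At an unadjusted p below 0.05, 1 end joining gene and 2 signalling genes were higher, beside 17 recombination and 9 Fanconi genes. Of all 15356 genes, 2228 were higher at that threshold. With the Wald test of DESeq2, 0 end joining and 0 signalling genes were called higher. The same test called 10 recombination genes, 6 Fanconi genes and 917 of all 15356 genes higher. The difference between the groups was not tested.

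**Figure D1:**
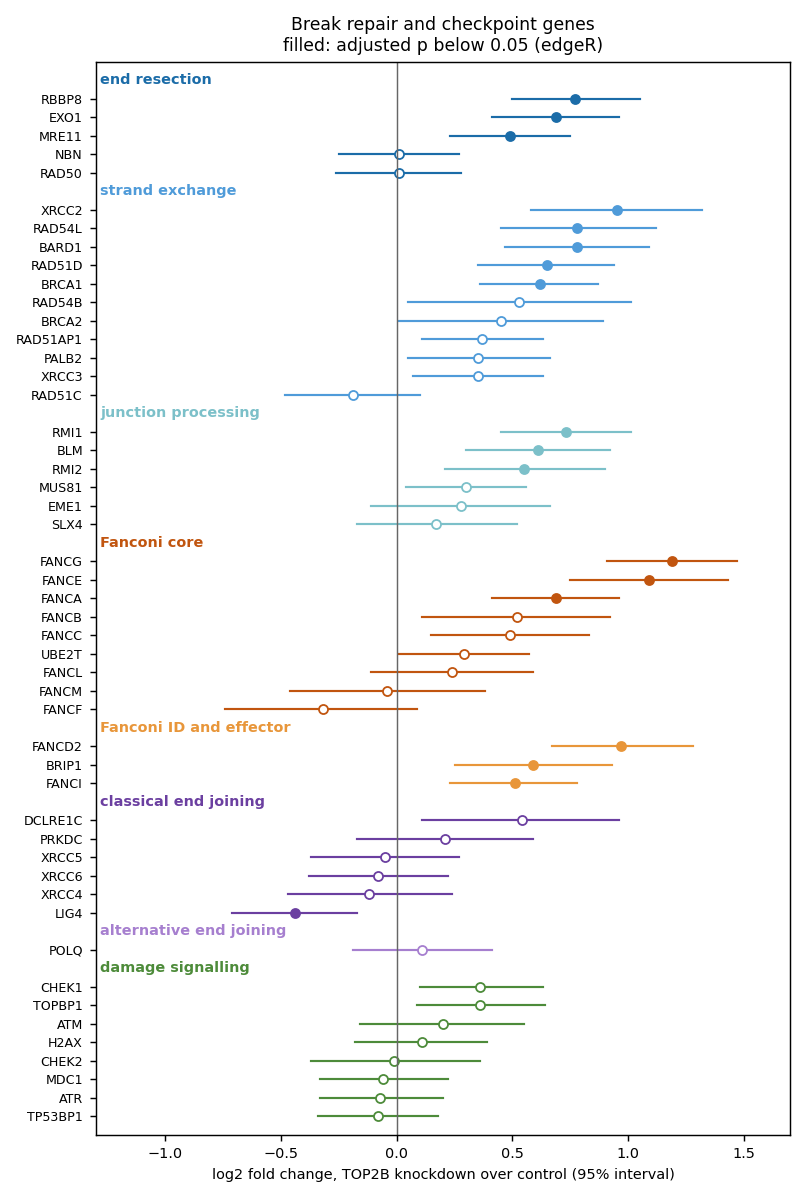
Fitted log2(fold change) of TOP2B knockdown over control for the 49 tested genes by role, with 95% confidence intervals, where filled points have an adjusted p below 0.05. The 17 filled points to the right of 0 all belong to the recombination and Fanconi groups, and the 1 filled point to the left is LIG4 at -0.44.

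The promoters of 4 of the genes are given here because they show, present and absent, a feature the genes were not chosen for. This feature is a set of exact words of the kind bound by E2F factors, which drive genes of the G1/S transition. FANCG had the largest rise and holds none of these exact words, though it holds a shorter match given below. FANCD2, XRCC2 and EXO1 rose and hold 1 each in the window printed, while the other EXO1 window holds 0. The windows run from 250 bases before to 50 bases after the start in RefSeq (GRCh38.p14), 5′ to 3′ on the strand of the gene, with the E2F word in capitals. They are chr9:35079893-35080192 on the minus strand for FANCG, chr3:10026187-10026486 on the plus strand for FANCD2, chr7:152676092-152676391 on the minus strand for XRCC2 and chr1:241847954-241848253 on the plus strand for EXO1, the first of 2 windows listed for that gene.
FANCG: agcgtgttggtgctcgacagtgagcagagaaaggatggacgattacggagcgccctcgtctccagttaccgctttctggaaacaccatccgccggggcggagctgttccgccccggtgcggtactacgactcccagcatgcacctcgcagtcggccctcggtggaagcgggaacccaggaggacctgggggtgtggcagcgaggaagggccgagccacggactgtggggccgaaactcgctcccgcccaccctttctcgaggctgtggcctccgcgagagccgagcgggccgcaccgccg
FANCD2: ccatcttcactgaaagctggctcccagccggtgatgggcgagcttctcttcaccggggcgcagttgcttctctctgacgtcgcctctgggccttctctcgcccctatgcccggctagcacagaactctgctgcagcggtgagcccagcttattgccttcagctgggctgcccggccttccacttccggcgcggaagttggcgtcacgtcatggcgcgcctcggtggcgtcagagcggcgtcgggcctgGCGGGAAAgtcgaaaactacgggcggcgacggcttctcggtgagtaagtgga
XRCC2: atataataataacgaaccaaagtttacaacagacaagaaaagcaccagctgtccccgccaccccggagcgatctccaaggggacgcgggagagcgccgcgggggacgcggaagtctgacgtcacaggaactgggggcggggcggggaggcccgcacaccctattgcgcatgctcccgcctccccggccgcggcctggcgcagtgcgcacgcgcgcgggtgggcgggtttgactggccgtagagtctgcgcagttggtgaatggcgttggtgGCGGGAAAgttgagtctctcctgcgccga
EXO1: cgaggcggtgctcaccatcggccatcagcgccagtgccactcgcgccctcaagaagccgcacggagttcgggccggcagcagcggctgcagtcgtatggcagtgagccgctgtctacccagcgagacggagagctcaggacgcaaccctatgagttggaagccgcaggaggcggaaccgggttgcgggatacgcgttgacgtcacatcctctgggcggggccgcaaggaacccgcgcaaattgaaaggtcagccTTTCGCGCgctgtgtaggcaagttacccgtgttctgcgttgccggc

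The words searched were TTTCCCGC, TTTCGCGC, TTTGCCGC and TTTGGCGC on either strand. With the start counted as 0, the first base of the word lies at position -2 in FANCD2 and 21 in XRCC2, read as GCGGGAAA on the strand of the gene, and at position 4 in EXO1, read as TTTCGCGC. The FANCG window holds GCGGGAA followed by C, which lacks only the last base of GCGGGAAA. Among genes called higher without an exact word, windows of FANCE, BARD1, BRCA1, BLM, BRIP1 and RAD51D also hold GCGGGAA without the further A. Windows of RAD54L hold it on the opposite strand. Such shorter matches were not counted, so a window without a word may still hold a site of this kind. Promoters were listed for 45 of the 51 genes, 43 of them tested, and 8 of these 43 hold an E2F word (18.6%), beside 6.55% of the 11037 tested genes with a promoter and 3.31% of all 35116 windows. A gene was counted when any of its windows held a word, so shares of genes and shares of windows differ in unit. Of the 15 genes called higher with a promoter 5 hold one (EXO1, XRCC2, RMI1, FANCA and FANCD2), and of the other 28 genes 3 do (FANCC, XRCC6 and TOPBP1). CCAAT, the word bound by NF-Y, was found in 24 of 43 (55.8%, beside 42.9% of tested genes and 34.6% of windows), in 7 of the 15 genes called higher. The CHR words TTTGAA and TTCGAA of mitotic genes were found in 7 of 43 (16.3%, beside 15.7% and 16.4%), with 1 among the 15. None of the words of these 3 kinds contains another. A match describes the letters of the window and not binding.

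End resection begins recombination by cutting back the 5′ strand at a break. RBBP8 (CtIP), which starts the cut together with the MRN complex, and EXO1, the exonuclease that extends it, rose. RBBP8 (chromosome 18 from 22798261 to 23026488, plus strand) had 38.8 and 42.6 CPM in control and 66.5 and 72.7 CPM in TOP2B knockdown cells. EXO1 (chromosome 1 from 241847967 to 241895148, plus strand) had 24.4 and 23.6 CPM against 40.4 and 36.8 CPM. For both genes each knockdown library lay well above each control library. The log2(fold change) was 0.77 for RBBP8 (SE 0.12, p adj = 0.00438) and 0.69 for EXO1 (SE 0.12, p adj = 0.00816). Of the MRN complex itself, which binds the ends and activates ATM, 1 of 3 subunits passed the test. The nuclease MRE11 (chromosome 11 from 94415570 to 94493885, minus strand) had 42.5 and 39.3 CPM against 58.1 and 56.6 CPM, a log2(fold change) of 0.49 (SE 0.12, p adj = 0.0272). RAD50, its ATPase partner, had 167.9 and 171.5 CPM against 167.9 and 174.5 CPM, with a log2(fold change) of 0.01 and a 95% confidence interval from -0.26 to 0.28. NBN, the subunit that recruits ATM, had 64.1 and 66.9 CPM against 63.5 and 68.5 CPM, with a log2(fold change) of 0.01 and an interval from -0.25 to 0.27. The call of MRE11 was lost without any one of the libraries, with p adj of 0.054 and 0.18 without control replicates 1 and 2 and 0.109 and 0.0837 without TOP2B knockdown replicates 1 and 2, at values from 0.43 to 0.55.

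Strand exchange loads the recombinase onto the resected strand and lets it search for the sister sequence. The obligate partners BRCA1 and BARD1, a ubiquitin ligase that promotes resection and loading, rose together. BRCA1 (chromosome 17 from 43044295 to 43170245, minus strand) had 58.3 and 57.8 CPM in control and 92.2 and 85.7 CPM in TOP2B knockdown cells. BARD1 (chromosome 2 from 214725646 to 214809683, minus strand) had 17.4 and 16.3 CPM against 31.1 and 26.7 CPM. Neither gene had overlapping groups, and the log2(fold change) was 0.62 for BRCA1 (SE 0.12, p adj = 0.01) and 0.78 for BARD1 (SE 0.14, p adj = 0.00741). PALB2, which bridges BRCA1 and BRCA2, had 31.2 and 25.6 CPM against 36.1 and 36.6 CPM (log2(fold change) 0.35, p adj = 0.125). BRCA2, the loader of the recombinase, had 33.3 and 25.5 CPM against 48.1 and 32.2 CPM. Its groups overlapped, since knockdown replicate 2 fell below control replicate 1, and its log2(fold change) of 0.45 had an interval from 0.01 to 0.89 (p adj = 0.175). BRCA2 passed without control replicate 1 (0.66, p adj = 0.0147) and without TOP2B knockdown replicate 2 (0.69, p adj = 0.006), and not without control replicate 2 (0.27, p adj = 0.503) or TOP2B knockdown replicate 1 (0.14, p adj = 0.789).

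The recombinase paralogs XRCC2, RAD51D and RAD51C act in shared complexes that stabilize the filament on the resected strand. XRCC2 (chromosome 7 from 152644776 to 152676193, minus strand), which holds an E2F word in its promoter window, had 26.4 and 19.8 CPM in control and 49.3 and 39.8 CPM in TOP2B knockdown cells, the largest rise among the recombination genes, with a log2(fold change) of 0.95 (SE 0.17, p adj = 0.00719). RAD51D (chromosome 17 from 35092221 to 35121522, minus strand) had 17.7 and 19.0 CPM against 27.4 and 30.2 CPM. It rose by 0.65 on the log2 scale (SE 0.13, p adj = 0.0138), but did not pass without TOP2B knockdown replicate 2 (0.56, p adj = 0.0604). RAD51C went the other way in value, with 23.0 and 25.1 CPM against 20.6 and 21.6 CPM. Both its knockdown libraries lay below both control libraries, by a log2(fold change) of -0.19 whose interval from -0.48 to 0.1 spans 0 (p adj = 0.403), and it had the lowest value of the recombination genes. XRCC3, a further paralog, had 22.4 and 21.9 CPM against 29.0 and 27.4 CPM (0.35 on the log2 scale, p adj = 0.105), and 34.2% of its exon bases are shared with KLC1 on the opposite strand. RAD54L (chromosome 1 from 46246461 to 46278480, plus strand), a motor protein that opens the partner duplex, rose from 18.4 and 15.0 CPM to 30.8 and 26.8 CPM, by 0.78 on the log2 scale (SE 0.15, p adj = 0.0107). LRRC41 shares 26.2% of its exon bases, and the setting for strand in the counting was not stated. Its relative RAD54B had the fewest reads of the tested genes, 95 and 82 against 130 and 97 counts, with a log2(fold change) of 0.53 (p adj = 0.145), and shares 65.5% of its exon bases with FSBP. RAD51AP1, which helps the recombinase pair strands, had 32.1 and 33.7 CPM against 42.8 and 42.0 CPM (0.37, p adj = 0.0767).

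After strand exchange the joined molecules are either dissolved or cut, and the listed genes called higher at this step were 3 of dissolution. BLM, a helicase, and its cofactors RMI1 and RMI2 dissolve double Holliday junctions without crossing over, and all of these rose. The topoisomerase that works with them, TOP3A, is among the further repair genes and was not called. It had 42.2 and 42.5 CPM in control and 54.8 and 52.8 CPM in TOP2B knockdown cells (0.34, p adj = 0.0876). BLM (chromosome 15 from 90717346 to 90816166, plus strand) had 14.7 and 13.6 CPM in control and 22.3 and 21.0 CPM in TOP2B knockdown cells. RMI1 (chromosome 9 from 83980798 to 84004074, plus strand) had 20.1 and 20.6 CPM against 32.7 and 34.9 CPM, and RMI2 (chromosome 16 from 11249619 to 11381662, plus strand) 15.9 and 18.9 CPM against 23.0 and 28.0 CPM. In each gene the control libraries stayed below the knockdown libraries, with log2(fold change) values of 0.61 for BLM (SE 0.14, p adj = 0.0218), 0.73 for RMI1 (SE 0.12, p adj = 0.0065) and 0.55 for RMI2 (SE 0.15, p adj = 0.0485). RMI1 kept its call without any one library. BLM lost it without control replicate 2 (0.56, p adj = 0.094) and without TOP2B knockdown replicate 1 (0.57, p adj = 0.0778). RMI2 lost it without control replicate 1 (0.43, p adj = 0.189) and without TOP2B knockdown replicate 2 (0.39, p adj = 0.266), and its p adj was 0.0118 to 0.0632 over the alternatives of scaling, filter and test. Of the nuclease genes, MUS81 had 42.7 and 40.9 CPM against 52.8 and 50.2 CPM (0.3 on the log2 scale, p adj = 0.131), and its partner EME1 14.3 and 12.4 CPM against 18.4 and 13.9 CPM (0.28, p adj = 0.35). SLX4, the scaffold that gathers such nucleases, had 28.8 and 25.7 CPM against 34.9 and 26.5 CPM (0.17, interval -0.17 to 0.52). The groups of EME1 and SLX4 overlapped.

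**Figure D2:**
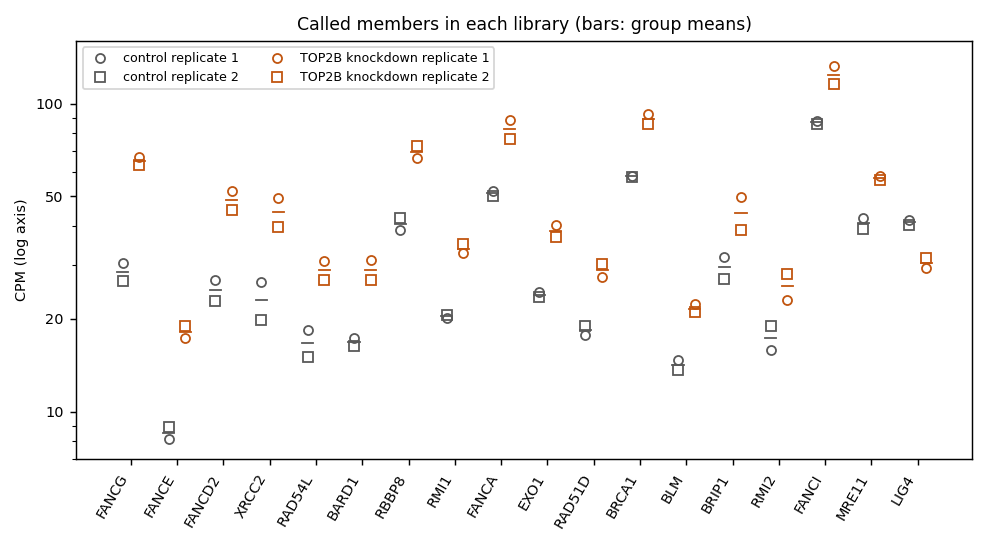
Level in each of the 4 libraries, in CPM scaled by TMM on a log axis, of the 17 genes called higher and of LIG4, with short bars at the group means of 2 libraries. In each of the first 17 genes both TOP2B knockdown libraries lie above both control libraries, from FANCG at 30.4 and 26.6 against 67.2 and 63.1 CPM to MRE11 at 42.5 and 39.3 against 58.1 and 56.6 CPM, and LIG4 lies the other way.

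The Fanconi core complex is the ubiquitin ligase that marks the FANCD2 and FANCI pair at a crosslink. Of the 9 genes listed for it, which take in its conjugating enzyme UBE2T, 3 were called higher. FANCG (ENSG00000221829, chromosome 9 from 35073835 to 35080004, minus strand), an assembly subunit that binds FANCA, had 30.4 and 26.6 CPM in control and 67.2 and 63.1 CPM in TOP2B knockdown cells. This 2.29-fold rise was the largest of all 49 genes, with a log2(fold change) of 1.19 (SE 0.13, p adj = 0.000754) and 1.10 to 1.29 without any one library. FANCE (chromosome 6 from 35452338 to 35467104, plus strand), which bridges the core complex to FANCD2, had 8.13 and 8.89 CPM against 17.3 and 18.9 CPM, a 2.12-fold rise with a log2(fold change) of 1.09 (SE 0.15, p adj = 0.00265). FANCA (chromosome 16 from 89726683 to 89816977, minus strand), the partner of FANCG, rose from 52.0 and 50.3 CPM to 88.3 and 76.6 CPM, with a log2(fold change) of 0.69 (SE 0.12, p adj = 0.00777), and shares 27.4% of its exon bases with ZNF276. These genes passed the test in all 4 fits without one library.

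FANCC and FANCF form a subcomplex with FANCE, and their values went in opposite directions. FANCC had 10.1 and 11.1 CPM in control and 14.3 and 15.5 CPM in TOP2B knockdown cells (log2(fold change) 0.49, p adj = 0.0683). FANCF had 7.76 and 8.54 CPM against 5.8 and 7.23 CPM, a log2(fold change) of -0.32 with an interval from -0.74 to 0.09 (p adj = 0.306). Neither passed the test, and FANCF was the lowest value of the Fanconi genes. FANCB, which assembles with the catalytic subunit, had 8.8 and 7.14 CPM against 12.4 and 10.4 CPM (0.52, p adj = 0.0996). That catalytic subunit, FANCL, had 15.3 and 13.8 CPM against 18.9 and 15.5 CPM (0.24, p adj = 0.369). The conjugating enzyme UBE2T, which hands ubiquitin to FANCL, had 28.4 and 32.2 CPM against 36.1 and 38.0 CPM (0.29, p adj = 0.17). FANCM, the translocase that anchors the complex to DNA, differed more between replicates than between groups, with 22.7 and 16.3 CPM against 21.4 and 16.5 CPM (-0.04, interval -0.46 to 0.38).

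Downstream of the core complex 3 of 3 genes were called higher. FANCD2 (chromosome 3 from 10026370 to 10101932, plus strand), the protein that receives the ubiquitin mark, had 26.7 and 22.9 CPM in control and 51.9 and 45.3 CPM in TOP2B knockdown cells. Its partner FANCI (chromosome 15 from 89243945 to 89317261, plus strand) had 88.1 and 86.1 CPM against 132.1 and 115.6 CPM. BRIP1 (chromosome 17 from 61679139 to 61863559, minus strand), a helicase that binds BRCA1, had 31.8 and 26.9 CPM against 49.7 and 38.8 CPM. The knockdown libraries lay above the control libraries in each gene, and the log2(fold change) was 0.97 for FANCD2 (SE 0.14, p adj = 0.00258), 0.51 for FANCI (SE 0.12, p adj = 0.0278) and 0.59 for BRIP1 (SE 0.15, p adj = 0.0352). FANCD2 kept its call without any one library. FANCI lost it without control replicate 1 (p adj = 0.081), control replicate 2 (p adj = 0.132) or TOP2B knockdown replicate 1 (p adj = 0.206), at values from 0.41 to 0.52. BRIP1 lost it without control replicate 2 (0.48, p adj = 0.123) and without TOP2B knockdown replicate 1 (0.41, p adj = 0.21).

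Classical end joining holds the 1 gene that was called lower. LIG4 (ENSG00000174405, chromosome 13 from 108207439 to 108218368, minus strand), the ligase that seals the ends, had 42.0 and 40.4 CPM in control and 29.3 and 31.5 CPM in TOP2B knockdown cells. The groups did not overlap, and the log2(fold change) was -0.44 (SE 0.12, 95% confidence interval -0.71 to -0.17, p adj = 0.0441). The call rests on all 4 libraries, since without control replicate 1 or 2 its p adj was 0.166 or 0.117 and without TOP2B knockdown replicate 1 or 2 it was 0.267 or 0.0924, at values from -0.51 to -0.39. XRCC4, which holds LIG4 at the ends and stabilizes it, had 11.7 and 14.1 CPM against 11.6 and 12.1 CPM (-0.12, interval -0.47 to 0.24). NHEJ1 (XLF), a further partner of the ligase, was not tested, with 4 and 0 counts in control and 1 and 3 in TOP2B knockdown libraries, and 24.3% of its exon bases are shared with ENSG00000280537.

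The Ku proteins that first cap a broken end had the highest levels per transcript length (TPM) of the genes studied, and neither passed the test. XRCC5 (Ku80) had 449.1 and 497.4 CPM in control and 430.5 and 482.9 CPM in TOP2B knockdown cells, a log2(fold change) of -0.05 with an interval from -0.37 to 0.27. XRCC6 (Ku70) had 302.0 and 322.6 CPM against 277.7 and 313.0 CPM, a log2(fold change) of -0.08 with an interval from -0.38 to 0.22. PRKDC, the catalytic subunit of the DNA-dependent kinase that Ku recruits, had 415.2 and 382.4 CPM against 533.1 and 388.0 CPM. Only knockdown replicate 1 stood out, and its log2(fold change) of 0.21 (interval -0.17 to 0.59, p adj = 0.488) was -0.03 without that library. DCLRE1C (Artemis), the nuclease that opens hairpin ends, was the highest of the end joining genes in log2(fold change), at 0.54 (p adj = 0.106), with 7.42 and 5.56 CPM against 9.9 and 8.97 CPM. It passed without control replicate 1 (0.76, p adj = 0.0361). POLQ, the polymerase of alternative end joining, which joins resected ends through short matches, had 47.3 and 45.6 CPM against 55.6 and 44.8 CPM (0.11, interval -0.19 to 0.41).

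None of the 8 tested signalling genes passed the test. Of these, 2 (CHEK1 and TOPBP1) passed an unadjusted p of 0.05, as did 4040 of all 15356 genes. With the Wald test of DESeq2, 0 of the 8 passed as well. CHEK1, the effector kinase of ATR, had 47.5 and 50 CPM in control and 60.2 and 65.1 CPM in TOP2B knockdown cells, with a log2(fold change) of 0.36 (interval 0.1 to 0.63, p adj = 0.0798). TOPBP1, which activates ATR, had 68.6 and 71.0 CPM against 96.9 and 82.7 CPM, also 0.36 (p adj = 0.0947). For both genes the groups did not overlap. ATR itself had 73.3 and 73.3 CPM against 74.1 and 65.8 CPM, with a log2(fold change) of -0.07 (interval -0.33 to 0.2). Its partner ATRIP was not tested, with 0 and 2 counts in control and 2 and 5 in TOP2B knockdown libraries, and shares 31.6% of its exon bases with TREX1.

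On the ATM side the values lay close to the control. ATM had 87.2 and 67.1 CPM in control and 98.2 and 78.8 CPM in TOP2B knockdown cells, higher in replicate 1 than in replicate 2 of either group, with a log2(fold change) of 0.2 (interval -0.16 to 0.55). CHEK2, the effector kinase of ATM, had 8.38 and 8.81 CPM against 8.2 and 8.92 CPM, -0.01 on the log2 scale (interval -0.37 to 0.36). H2AX, the histone variant that ATM phosphorylates beside a break, had 115.1 and 134.4 CPM against 132.4 and 135.9 CPM (0.11, interval -0.18 to 0.39). MDC1, which reads that mark, had 82.2 and 85.6 CPM against 86.2 and 75.0 CPM (-0.06, interval -0.33 to 0.22). TP53BP1, which shields ends from resection, had 111.5 and 107.9 CPM against 106.1 and 101.1 CPM, both knockdown libraries below both control libraries by a log2(fold change) of -0.08 (interval -0.34 to 0.18), and it shares 36.0% of its exon bases with TUBGCP4. The intervals of ATM, CHEK2, H2AX, MDC1 and TP53BP1 together reach from -0.37 to 0.55, so that changes of such a size are not excluded. Phosphorylation, by which this pathway signals, is not seen in RNA.

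Per transcript length, the levels spanned more than 2 orders of magnitude. In TPM, a scale that divides counts by the length of the canonical transcript and by their sum over tested genes, XRCC6 and XRCC5 had 359.3 ± 3.21 and 341.7 ± 11.7 in control cells (SD, n = 2), followed by H2AX with 191.0 ± 13.7, UBE2T with 84.1 ± 4.29 and PRKDC with 72.5 ± 6.95. XRCC6 and XRCC5, and UBE2T and PRKDC, lie hardly further apart than their SD, while H2AX stands clear of its neighbours. At the low end were RAD51D with 4.5 ± 0.0533, RAD54B with 3.01 ± 0.321 and DCLRE1C with 2.67 ± 0.64 TPM, of which the last pair lay within their SD of each other. The genes called higher had control levels from 4.5 TPM (RAD51D) to 45.0 TPM (FANCI), so that none of the 6 genes with the highest level was among them. FANCE went from 8.07 ± 0.205 to 17.6 ± 0.308 TPM and FANCG from 27.3 ± 3.55 to 63.9 ± 5.65 TPM (SD, n = 2). Across the 49 genes, Spearman's rho between the log2(fold change) and the control level was -0.32, and it was 0.03 with the span of the gene, 0.01 with the length and 0.07 with the GC content of the canonical transcript, and -0.03 with the share of exon bases that overlap other genes. These describe genes that share the same 4 libraries.

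**Figure D3:**
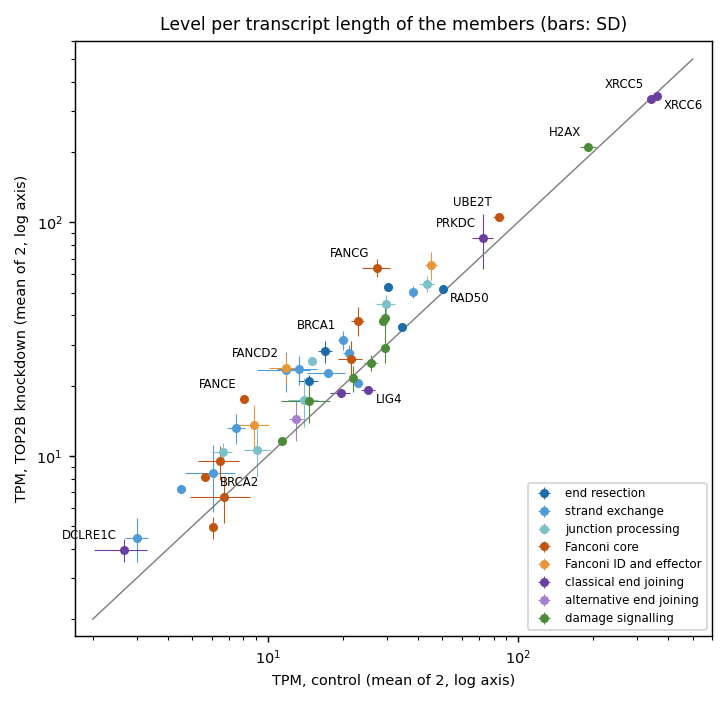
Mean level per transcript length in control (x axis) and TOP2B knockdown (y axis) cells, in TPM on log axes, for the 49 tested genes coloured by role, with bars of 1 SD over 2 libraries and the line of equal levels. The Ku genes XRCC5 and XRCC6 sit on the line at the upper right, while FANCG (27.3 to 63.9 TPM) and FANCE (8.07 to 17.6 TPM) lie above it and LIG4 (25.3 to 19.1 TPM) below.

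Further genes of the same pathways were counted in the same fit. Of 81 further repair and checkpoint genes 78 were tested (SLX1A, SLX1B and DNTT were not), with 11 higher (14.1%), 0 lower and a median of 0.13. Of all genes, 6.66% were higher and 4.18% lower. With the Wald test of DESeq2, 0 of the 78 were lower as well, beside 645 of all 15356 genes. At an unadjusted p below 0.05, 23 of the 78 were higher and 4 lower, beside 2228 and 1812 of all 15356 genes. LIG1, the ligase that seals nicks between Okazaki fragments, had 29.7 and 27.1 CPM in control and 67.7 and 62.1 CPM in TOP2B knockdown cells, with a log2(fold change) of 1.19 (SE 0.12, p adj = 0.000716). XRCC1, the scaffold of single-strand break repair, had 21.3 and 21.7 CPM against 48.9 and 46.0 CPM, with a log2(fold change) of 1.14 (SE 0.12, p adj = 0.00079). The next by adjusted p were TELO2, which stabilizes ATM and ATR (0.73), CLSPN, which carries the ATR signal to CHEK1 (0.73), and USP1, the protease that removes ubiquitin from FANCD2 (0.58). Without TOP2B knockdown replicate 1, 7 of these genes were called higher.

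Genes of the replication fork, which work in the same phase of the cell cycle as recombination, are set beside them here. All 36 were tested and 25 were higher (69.4%), with a median of 0.63. By edgeR, by DESeq2 and at an unadjusted p below 0.05, 0 of them were lower, beside 642, 645 and 1812 of all 15356 genes. POLD1, the catalytic subunit of polymerase delta, rose by 1.36 on the log2 scale (p adj = 0.00048), MCM6 0.98, CDC45 1.11 and MCM4 0.77. Of 30 mitotic genes 6 were higher (20%) with a median of 0.25, led by TTK (0.79), KIF11 (0.77), NUSAP1 (0.49), KIF20A (0.49) and ESPL1 (0.51). Of 24 targets of p53, the transcription factor that the checkpoint kinases activate, 2 were higher (8.33%) and 2 lower, beside 6.66% and 4.18% of all genes. FDXR rose by 0.83 and SESN2 by 0.62, while TP53INP1 fell by 1.03 and BTG2 by 0.43. The median was -0.06, with 9 values positive and 15 negative. CDKN1A, at -0.63, was not called by edgeR (p adj = 0.0863) and was lower by the Wald test of DESeq2 (p adj = 0.0135). Some called genes named from these lists and from the further repair genes did not pass in every fit without one library. These were USP1, NUSAP1, KIF20A, ESPL1, SESN2 and BTG2, with values of 0.54 to 0.61, 0.45 to 0.53, 0.39 to 0.59, 0.37 to 0.66, 0.5 to 0.73 and -0.45 to -0.41. The lists do not share genes with the 51, and no test of the difference between lists was made. The part of cell cycle phase or growth of the cultures in the values of the repair genes was not tested.

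**Figure D4:**
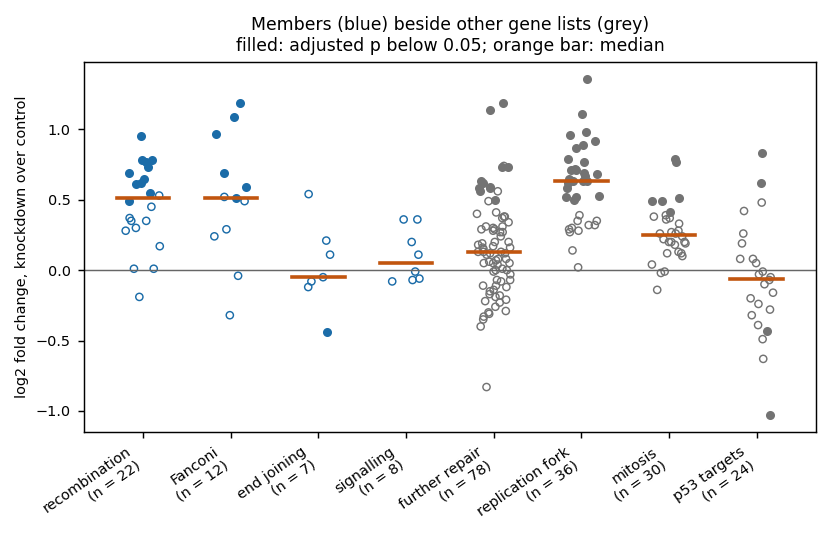
Log2(fold change) of TOP2B knockdown over control for the repair and checkpoint genes by pathway (blue) beside other gene lists (grey), 1 point per tested gene, with orange bars at the medians and filled points for an adjusted p below 0.05. The medians are 0.51 for recombination and Fanconi genes, -0.05 for end joining, 0.05 for signalling, 0.13 for further repair genes, 0.63 for replication fork, 0.25 for mitotic and -0.06 for p53 target genes.

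The 17 rises were unequal in how far they held. Under 6 alternatives of scaling, filter, gene class and test, 15 of the 17 genes kept their call, with RMI2 and BRIP1 as the exceptions, and 11 of 17 kept it in all 4 fits without one library. These 11 were RBBP8, EXO1, BRCA1, BARD1, XRCC2, RAD54L, RMI1, FANCA, FANCE, FANCG and FANCD2. Of the 51 genes, 9 share more than 20% of the exon bases of their canonical transcript with another gene of the table, among them FANCA and RAD54L of the genes called higher. The 6-base word GCAACC was counted in 3′ untranslated regions because earlier results of these data had picked it out. Of all tested genes, 368 of 2927 with the word and 574 of 9590 without it were called higher, a count with no test. It stood in that region in 9 of the 49 repair genes (18.4%, beside 23.4% of 12517 genes). The median log2(fold change) was 0.17 for those 9 and 0.364 for the 40 genes without it, and 3 of the 17 higher genes (RAD51D, FANCD2 and BRIP1) hold the word. Its part in the values of these genes was not tested.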

How the data were processed

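RNA-seq libraries of 2 control and 2 TOP2B knockdown replicates, called biological replicates in the study, were sequenced from 1 end over 65 bases. The authors quality-checked them with FastQC 0.11.6, aligned them to GRCh38 with STAR 2.5.4a (versions from the submitters' processing notes) and deposited raw gene counts on the Gencode v24 annotation. The 4 columns appear a second time with the same values, and these 4 were not used. A tag for stranded, paired reads stands in the column names although the reads are single-end, and whether strand was used for counting is not given in the sources used here.

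Testing of the deposited counts required 10 or more in 2 or more libraries and used edgeR 4.0.16 (R 4.3.3; glmQLFit and glmQLFTest, TMM, group as single term, Benjamini-Hochberg over 15356 genes, called below 0.05). The common dispersion was 0.0117. Standard errors are the coefficient over the root of its F statistic. CPM was scaled by TMM, and TPM used the canonical transcript of GENCODE v44 on GRCh38, from which positions, exon overlaps and 3′ untranslated regions came. Promoters were matched by symbol in RefSeq windows. The scripts were tested on simulated data. With total counts between 20310259 and 23887013, 1 CPM rests on 20.3 to 23.9 reads.

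The genes, gene lists and tests were chosen with earlier results of these data known. Named were TOP2B, each called gene, the largest positive and negative value of each role, 10 genes fixed by name, untested genes, and up to 5 called genes of each list with the smallest adjusted p, of which 1 replication fork gene is not reported here. Remaining repair genes, TOP3A and CDKN1A were added after their values were seen. The alternatives were DESeq2 size factors, library size alone, no filter, a mean of at least 100 counts, protein-coding genes alone, the Wald test of DESeq2 1.42.0, the replicate block, and fits without each library, in which the lone sample is assumed to vary like the other group.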

Additional observations from a re-analysis of the deposited data

How the results depend on the processing

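The number of repair and checkpoint genes called higher was 17, and 15 to 18 under the other scalings, filters, gene class and test, with 1 lower in each of these. At an adjusted p below 0.01, 9 were higher and 0 lower. Without one library each in turn, 13 to 16 were higher and 0 lower, where LIG4 lost its call at values of -0.51 to -0.39, and the median log2 fold change ranged from 0.33 to 0.39 around 0.36. Of the further repair genes, 7 to 9 were higher (11 with all libraries) and 0 to 1 lower in these fits. Some genes near 0 changed sign. With DESeq2, RAD50 was at -0.00342 and NBN at -0.01, and among protein-coding genes alone CHEK2 was at 0.00296. In the fits that each omit a library, values ran from -0.03 to 0.04 for RAD50, -0.06 to 0.07 for NBN, -0.03 to 0.34 for SLX4, -0.26 to 0.22 for FANCM, -0.24 to 0.02 for XRCC4, -0.15 to 0.03 for XRCC5, -0.18 to 0.01 for XRCC6, -0.03 to 0.4 for PRKDC, -0.05 to 0.25 for POLQ, -0.08 to 0.06 for CHEK2, -0.16 to 0.02 for MDC1 and -0.00248 to 0.22 for H2AX. With the replicate block, 33 repair genes were higher and 2 lower (of all genes tested, 3440 and 3346), and 31 further genes were higher and 11 lower. The 33 were no longer confined to recombination (18) and Fanconi genes (10), but took in 2 end joining genes (DCLRE1C and PRKDC) and 3 signalling genes (CHEK1, TOPBP1 and ATM). Deviations of same-numbered libraries from their group means correlated with r = 0.479 over 15356 genes, but with 2 pairs and no label that ties the numbers to a shared batch the pairing is not established. With 2 libraries per group and this depth, changes of 2-fold and less are seen only in part. In the simulated data, 68.2% of changes of 1 and 19.1% of changes of 0.5 on the log2 scale were recovered.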

Other observations

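Ratios of raw counts within a library are free of the scaling between libraries, and the pairs given here were chosen after their values were seen. Counts of MRE11 per count of RAD50 were 0.253 and 0.229 in control and 0.346 and 0.325 in TOP2B knockdown libraries, while RAD50 per count of NBN was 2.62 and 2.57 against 2.64 and 2.55. Within the pair that the Fanconi core complex modifies, FANCD2 per count of FANCI was 0.302 and 0.266 against 0.393 and 0.392. CHEK1 per count of ATR, its activating kinase, was 0.648 and 0.681 against 0.813 and 0.989. LIG4 per count of XRCC4 was 3.59 and 2.88 against 2.52 and 2.59, so that both knockdown libraries lay below both control libraries. BRCA1 per count of BARD1 was 3.36 and 3.56 against 2.97 and 3.2, and XRCC5 per count of XRCC6 1.49 and 1.54 against 1.55 and 1.54. MRE11 per count of NBN was 0.663 and 0.587 against 0.915 and 0.827. BLM per count of RMI1 (0.731 and 0.662 against 0.684 and 0.601) and MUS81 per count of EME1 (3.0 and 3.3 against 2.87 and 3.61) overlapped between the groups. Transcript lengths differ between the partners, so a ratio gives no stoichiometry, and the ratios were not tested.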
